A study of Mus musculus with 9 samples.

Results

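Posterior epiblast-like cells (pEpiLC) were compared with the epiblast-like cells (EpiLC) they were made from, over all genes of a bulk RNA-seq count table, using the 3 pEpiLC and the 3 EpiLC libraries among the 9 of the series. EpiLCs are a culture model of the mouse epiblast just after implantation. Naive embryonic stem cells were held for 48 h in N2B27 medium with 1% knockout serum replacement (KSR), FGF2 and Activin A. pEpiLCs were EpiLCs kept for a further 24 h with Activin and CHIR99021, which switches on Wnt/β-catenin signalling, and without FGF2. The study calls the cells wild-type, and the line behind these libraries is not given in the sources used here. The 3 libraries of anterior epiblast-like cells (aEpiLC), EpiLCs kept for the same 24 h in N2B27-based medium without those factors, are given as context only. Added CHIR99021, withdrawn FGF2 and 24 h of further culture go together between EpiLC and pEpiLC and cannot be told apart. The replicates are numbered 1 to 3 and nothing says whether they came from separate cultures, so the p-values measure the spread between these libraries, which may be technical.

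In the embryo, WNT3 and NODAL pattern the posterior epiblast, where the primitive streak forms, and cells there switch on T-box factors, leave the epithelium and become mesoderm and endoderm. CHIR99021 inhibits the kinase GSK3, so that β-catenin is no longer degraded and acts with TCF/LEF factors on Wnt target genes. Activin signals through the receptors that NODAL also uses, to SMAD2 and SMAD3.

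The libraries held 20560564 to 23417917 counts each. A gene was called higher or lower in pEpiLC where edgeR's quasi-likelihood test gave a Benjamini-Hochberg adjusted p under 0.05 and the log2 fold change was at least 1 in size. Of 15288 genes tested, 1178 were called higher (7.71%) and 1243 lower (8.13%), and the median log2 fold change over all of them was 0.02. Levels are given as CPM (the counts of a gene scaled to a common library size), which compare libraries for one gene and not genes with each other. Log2 fold changes are followed by an approximate standard error (SE). It was worked back from the test, as the size of the log2 fold change over the square root of the F statistic. For genes near absent from EpiLC it is a rough guide only. The pEpiLC libraries were not alike. Replicate 1 differed more than 4-fold (on CPM + 1) from each of replicates 2 and 3 in 103 genes, against 6 genes between replicates 2 and 3, 5 to 8 between EpiLC libraries and 4 to 7 between aEpiLC libraries. A fit without pEpiLC replicate 1 was therefore run beside the fit on all 6 libraries, and its log2 fold change is given for a named gene wherever it moved by over 1.5-fold or the call was lost. Where leaving out one of the other 5 libraries ended a call, that library is named with the highest adjusted p so obtained. That fit tested 15699 genes and called 1106 higher (7.05%) and 1308 lower (8.33%). Both fits called 994 genes higher and 1076 lower. Among the 15288 genes tested in both fits, a further 184 were called higher and 167 lower only with replicate 1 included, 83 and 130 only without it, and 0 had opposite calls. The remaining calls of the fit without replicate 1 were of genes tested in that fit alone. The 3 pEpiLC libraries lay wholly above or wholly below the 3 EpiLC libraries in 58.6% of all tested genes, and did so for every called gene whose values are given here except Dhrs3. Transcripts of the mitochondrial genome took 1.55% to 1.71% of EpiLC counts, 2.24% to 2.45% of pEpiLC counts and 2.17% to 2.34% of aEpiLC counts, and their part in the results was not tested.

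**Figure D1:**
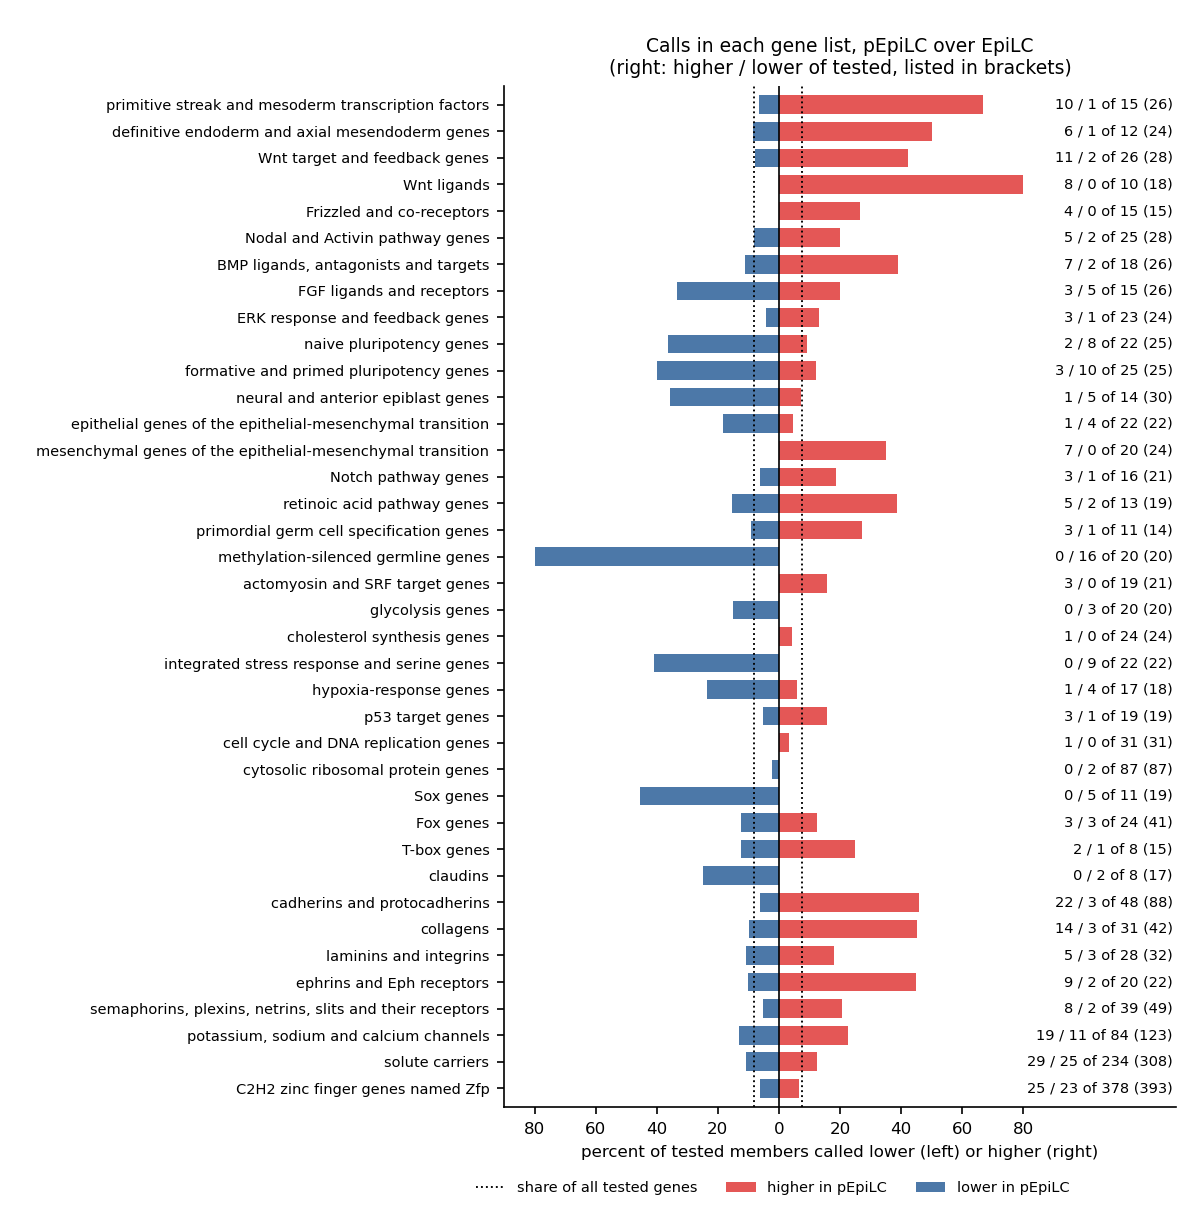
Share of the tested members of each gene list that were called higher (right, red) or lower (left, blue) in pEpiLC than in EpiLC, in percent, with the counts at the right edge and the number of listed genes in brackets. Dotted lines mark the shares over all 15288 tested genes, 7.71% higher and 8.13% lower, and only lists with 8 or more tested members are drawn, in no order of size. The streak factors had 10 higher of 15 tested, out of 26 listed, and the methylation-silenced germline genes 16 lower of 20 tested, out of 20. Members low in EpiLC could pass the filter on low counts through pEpiLC alone, and lists share some genes.

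Of 26 listed transcription factors of the primitive streak and mesoderm, 10 were called higher and 1 lower (10 and 2 without replicate 1, and 6 higher without any 1 of the EpiLC libraries). Only 15 of the 26 passed the filter on low counts, some of them through pEpiLC alone, since Evx1, Gsc, Cdx1 and Foxc1 were at or under 3 counts in each EpiLC library, so the 10 are read against the 26. In the other lists too, members low in EpiLC could pass the filter through pEpiLC alone, which raises the share of tested members called higher. T (Brachyury), the T-box factor that marks the streak, stood at 0.462, 0 and 0.435 CPM in EpiLC 1 to 3, at 1093 CPM in pEpiLC 1 and at 206 and 222 CPM in pEpiLC 2 and 3 (log2 fold change 10.69 ± 1.12, adjusted p = 0.00049, 9.44 without replicate 1). The 3 pEpiLC libraries were all far above EpiLC, and replicate 1 was in turn far above the others. Eomes, a second T-box factor of the streak that is also needed for endoderm, was closer to even, at 3.19, 2.14 and 3.22 CPM in EpiLC, 382 CPM in pEpiLC 1 and 241 and 219 CPM in pEpiLC 2 and 3 (log2 fold change 6.61 ± 0.29, adjusted p = 2e-05). In aEpiLC, T stood at 1.22, 0.859 and 0.598 CPM and Eomes at 5.35, 4.57 and 4.69 CPM.

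Several homeobox genes of the streak were far higher in replicate 1 than in replicates 2 and 3. Mixl1, which acts in mesendoderm, stood at 1.29, 0.791 and 1.70 CPM in EpiLC and at 647 CPM in pEpiLC 1, against 37.6 and 36.4 CPM in pEpiLC 2 and 3 (log2 fold change 7.56 ± 1.51, adjusted p = 0.006, 4.86 without replicate 1). Evx1, a posterior streak gene, had no counts in any EpiLC library and 136, 11.8 and 11.9 CPM in pEpiLC 1, 2 and 3, which is at least 380.1-fold higher when set against 3 counts per library (at least 84.9-fold from replicates 2 and 3, adjusted p = 0.011). The antisense gene Evx1os overlaps Evx1, and whether the counting used strand is not given in the sources used here, so their reads cannot be told apart. Gsc, a factor of the anterior streak and organizer, went from at most 0.0465 CPM to 84.1, 10.6 and 9.64 CPM, at least 249-fold higher (at least 72.3-fold from replicates 2 and 3, adjusted p = 0.0025). Lhx1, of the node and lateral mesoderm, stood at 209 CPM in pEpiLC 1 alone, with 1.27 and 1.35 CPM in pEpiLC 2 and 3 and 0.0925, 0.279 and 0.435 CPM in EpiLC (log2 fold change 7.99 ± 2.45, adjusted p = 0.032, up to 0.108 without EpiLC 1, 2 or 3, log2 fold change 2.24 without replicate 1). The caudal factor Cdx1 had at most 0.0462 CPM in EpiLC and 16.9, 0.745 and 0.745 CPM in pEpiLC, at least 43.8-fold higher (at least 5.34-fold without replicate 1, adjusted p = 0.016, up to 0.0802 without EpiLC 1, 2 or 3). Its relative Cdx2 was also highest in replicate 1, and stood at 0.185, 0.0931 and 0.131 CPM in EpiLC, 6.99 CPM in pEpiLC 1 and 1.05 and 0.931 CPM in the others (log2 fold change 4.40 ± 1.02, adjusted p = 0.011, 0.0505 without EpiLC 2, log2 fold change 2.81 without replicate 1). Tcf15, a gene of paraxial mesoderm that epiblast cells also express, was the member that fell, from 10.7, 8.10 and 5.40 to 3.02, 1.58 and 1.77 CPM (log2 fold change -1.93 ± 0.34, adjusted p = 0.0035). Mesp1, Msgn1, Hand1, Gata4, Foxf1 and Isl1, later mesoderm factors, did not pass the filter.

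Endoderm and axial genes gave a mixed picture. Of 24 listed, 12 were tested, with 6 called higher and 1 lower (4 and 2 without replicate 1, and 3 higher without EpiLC 1). Foxa2, a forkhead factor of anterior streak and endoderm, rose in every pEpiLC library, from 0.0462, 0.186 and 0.174 CPM to 63.1, 42.9 and 34.5 CPM (log2 fold change 8.36 ± 0.40, adjusted p = 2.4e-05). Chrd, an extracellular BMP antagonist of the organizer, rose from 3.56, 2.47 and 2.83 to 11.6, 9.33 and 10.7 CPM (log2 fold change 1.83 ± 0.19, adjusted p = 0.00042). Hhex, an early factor of anterior endoderm, rose, with 1.11, 1.07 and 1.26 CPM in EpiLC and 5.51, 2.19 and 1.82 CPM in pEpiLC (log2 fold change 1.46 ± 0.45, adjusted p = 0.032, up to 0.102 without EpiLC 1, 2 or 3, log2 fold change 0.80 without replicate 1 and not called). Sfrp5, a secreted Wnt antagonist, was the member that fell, from 1.62, 1.21 and 1.65 to 0.527, 0.307 and 0.419 CPM (log2 fold change -1.84 ± 0.32, adjusted p = 0.0037). Sox17, the factor that marks definitive endoderm, did not pass the filter, with 4.69, 0.263 and 0 CPM in pEpiLC 1 to 3, and Cer1, a secreted Nodal and BMP antagonist, had 5.46, 0.307 and 0.605 CPM. Foxb1, a forkhead gene outside this list, was higher in replicates 2 and 3 than in replicate 1, at 0.0462, 0.233 and 0.131 CPM in EpiLC and 22.8, 32.3 and 40.05 CPM in pEpiLC (log2 fold change 7.80 ± 0.38, adjusted p = 2.7e-05). Mab21l2 was also lowest in replicate 1 among the pEpiLC libraries, with at most 0.0931 CPM in EpiLC and 9.34, 16.7 and 14.995 CPM in pEpiLC, at least 97.9-fold higher (adjusted p = 3.2e-05).

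**Figure D2:**
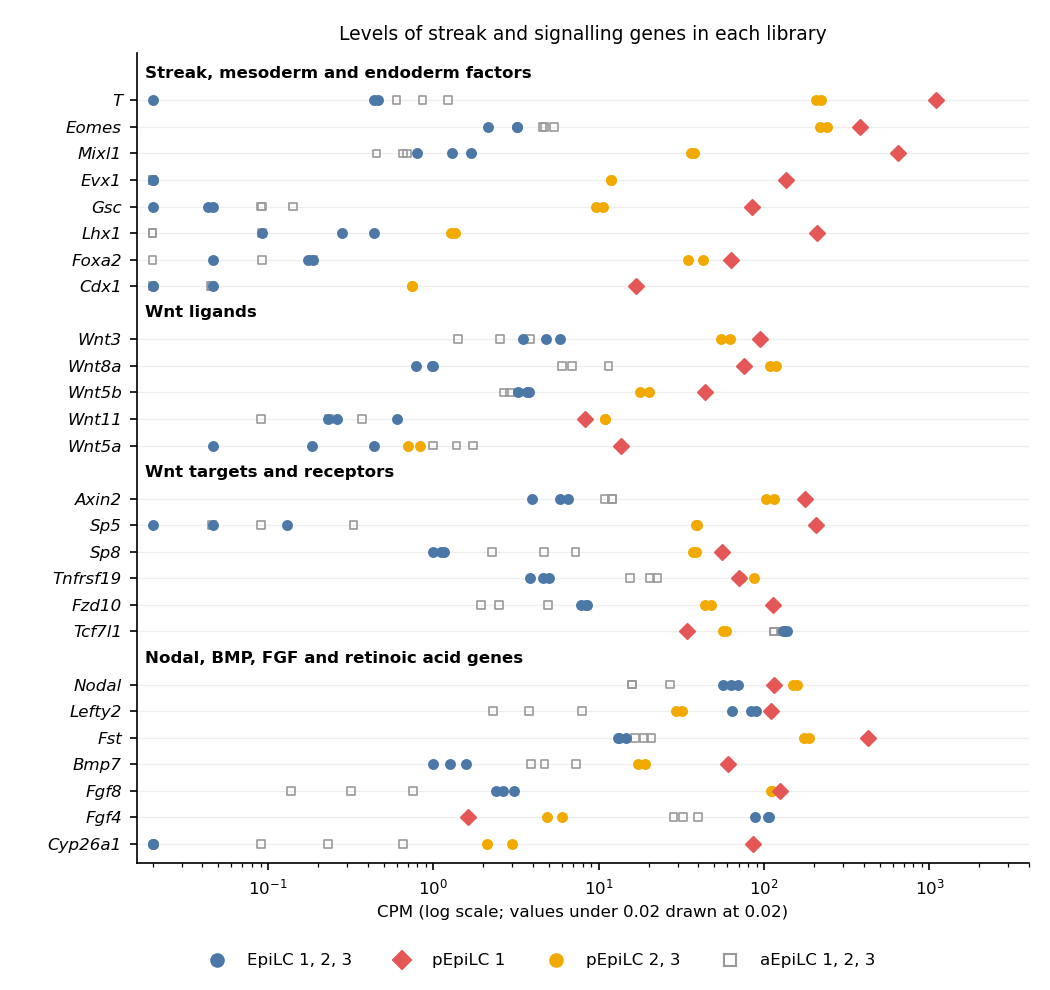
CPM of streak and signalling genes on a log axis, 1 point for each library: EpiLC (blue circles), pEpiLC 1 (red diamond), pEpiLC 2 and 3 (yellow circles) and aEpiLC (grey squares, context). T, Mixl1, Evx1, Lhx1 and Cyp26a1 were far higher in pEpiLC 1 than in pEpiLC 2 and 3, while Foxa2, Wnt8a, Wnt11, Fgf8 and Tnfrsf19 lay within 2-fold of each other in the 3 pEpiLC libraries.

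Of 18 Wnt ligands in the table, 10 were tested and 8 were called higher and 0 lower, with and without replicate 1. Members low in EpiLC, such as Wnt11 and Wnt5a, could pass the filter through pEpiLC alone, so the 8 are read against the 18. Wnt3, the ligand that starts the streak, stood at 5.83, 3.49 and 4.79 CPM in EpiLC and 94.2, 55.2 and 62.4 CPM in pEpiLC (log2 fold change 3.90 ± 0.26, adjusted p = 9.8e-05). Wnt8a, a ligand of the streak that signals through β-catenin, went from 0.786, 0.977 and 1.00 CPM to 75.7, 109 and 117 CPM, lowest in replicate 1 among the pEpiLC libraries (log2 fold change 6.76 ± 0.22, adjusted p = 4.6e-06). The ligands Wnt5b and Wnt11, known for β-catenin-independent signalling in moving cells, rose too. Wnt11 stood at 0.231, 0.605 and 0.261 CPM in EpiLC and 8.28, 10.96 and 10.9 CPM in pEpiLC (log2 fold change 4.76 ± 0.33, adjusted p = 0.00011). Wnt5b stood at 3.79, 3.68 and 3.26 CPM in EpiLC and 43.9, 20.2 and 17.8 CPM in pEpiLC (log2 fold change 2.93 ± 0.36, adjusted p = 0.00089). Wnt5a differed between the pEpiLC libraries, at 13.6 CPM in replicate 1 and 0.833 and 0.699 CPM in the others, over 0.185, 0.0465 and 0.435 CPM in EpiLC (log2 fold change 4.45 ± 1.39, adjusted p = 0.034, up to 0.115 without EpiLC 1, 2 or 3, log2 fold change 1.73 without replicate 1).

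Of the 15 Frizzled receptors and co-receptors tested, 4 were called higher and 0 lower, and the other 11 were not called. Fzd10 stood at 7.82, 8.42 and 8.44 CPM in EpiLC and 114, 44.0 and 47.7 CPM in pEpiLC (log2 fold change 3.05 ± 0.38, adjusted p = 0.0009). Ror2, a receptor tyrosine kinase for WNT5A, stood at 6.71, 6.004 and 7.44 CPM in EpiLC and 67.9, 53.4 and 50.1 CPM in pEpiLC (log2 fold change 3.08 ± 0.15, adjusted p = 2.7e-05). The median of the 15 was 0.07, near the 0.02 of all genes.

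Genes that Wnt/β-catenin signalling is known to activate, many of them its own inhibitors, were tested for 26 of 28 listed, with 11 called higher and 2 lower (10 and 2 without replicate 1). The 11 include Cdx2 and Cdx1, and Cdx1 is also counted among the streak factors, so the 2 lists are not separate. Axin2, a scaffold of the β-catenin destruction complex and the usual reporter of the pathway, stood at 3.93, 6.52 and 5.79 CPM in EpiLC and 177, 114 and 103 CPM in pEpiLC (log2 fold change 4.60 ± 0.27, adjusted p = 5.3e-05). Sp5, a zinc finger repressor that feeds back on TCF/LEF sites, had at most 0.131 CPM in EpiLC and 206, 39.0 and 38.8 CPM in pEpiLC, at least 677-fold higher (at least 279-fold without replicate 1, adjusted p = 0.00082). Its relative Sp8 rose from 1.16, 1.12 and 1.00 to 55.3, 38.8 and 37.2 CPM (log2 fold change 5.32 ± 0.21, adjusted p = 1.2e-05). Tnfrsf19, a receptor of the tumour necrosis factor family, rose from 4.99, 4.61 and 3.83 to 70.7, 86.8 and 72.4 CPM (log2 fold change 4.09 ± 0.13, adjusted p = 4.6e-06). The feedback inhibitors Nkd1, Notum, Rnf43 and Apcdd1 were also called higher, with log2 fold changes of 1.92, 2.67, 1.95 and 1.37 (1.06, 1.99, 2.01 and 0.91 without replicate 1, where Apcdd1 was no longer called). Nkd1 had an adjusted p of 0.022, up to 0.0833 without EpiLC 1, 2 or 3. Lef1, a TCF/LEF factor, was not called, at 85.8, 91.0 and 104 CPM in EpiLC and 113, 80.1 and 84.9 CPM in pEpiLC. Tcf7l1, the TCF that represses targets in epiblast, fell from 133, 131 and 137 to 34.2, 59.2 and 56.8 CPM (log2 fold change -1.42 ± 0.18, adjusted p = 0.001).

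The short words that TCF/LEF factors are known to bind, CTTTGAA and CTTTGAT, were looked for on both strands in the RefSeq promoter windows of GRCm38.p6, 250 bases before to 50 after each transcript start. A window was given for 11233 of the tested genes, and 6.86% of these held either word. The share was 8.64% of the 810 genes called higher with a window and 6.54% of the 872 called lower. Of the 11 Wnt targets called higher, 7 had a window and 3 held a match, Sp8 in 1 of its 3 windows and Tnfrsf19 in 1 of its 2. Those promoters, of Sp5 at chr2:70474673-70474972 (plus strand), Sp8 at chr12:118846983-118847282 (plus strand) and Tnfrsf19 at chr14:61037938-61038237 (minus strand), are shown because they hold a match, with the matching word in capitals on the strand of the gene.
Sp5: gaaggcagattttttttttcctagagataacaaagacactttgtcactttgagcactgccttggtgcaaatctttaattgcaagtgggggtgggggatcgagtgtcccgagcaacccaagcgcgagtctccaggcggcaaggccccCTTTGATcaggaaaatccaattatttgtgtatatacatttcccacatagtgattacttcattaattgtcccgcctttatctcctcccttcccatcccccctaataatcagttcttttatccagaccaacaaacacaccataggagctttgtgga
Sp8: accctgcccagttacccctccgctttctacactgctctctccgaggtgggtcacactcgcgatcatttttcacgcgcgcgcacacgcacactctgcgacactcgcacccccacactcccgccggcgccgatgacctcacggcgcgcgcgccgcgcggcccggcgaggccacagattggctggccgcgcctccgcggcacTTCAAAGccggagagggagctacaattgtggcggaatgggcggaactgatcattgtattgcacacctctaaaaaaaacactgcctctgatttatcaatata
Tnfrsf19: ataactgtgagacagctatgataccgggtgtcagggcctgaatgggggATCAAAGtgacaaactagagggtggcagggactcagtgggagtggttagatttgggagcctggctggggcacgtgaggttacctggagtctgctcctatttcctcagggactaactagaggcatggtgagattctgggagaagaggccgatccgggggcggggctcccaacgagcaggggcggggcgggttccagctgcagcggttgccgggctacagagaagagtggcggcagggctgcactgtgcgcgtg
Sp5 held CTTTGAT in the direction of the gene, Sp8 held CTTTGAA on the opposite strand (printed TTCAAAG) and Tnfrsf19 held CTTTGAT on the opposite strand (printed ATCAAAG). A match is a description of the letters and does not show that a factor binds there.

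Nodal and Activin pathway genes had 5 of 25 tested members called higher and 2 lower (4 and 2 without replicate 1). Nodal, the ligand, stood at 56.5, 63.3 and 69.9 CPM in EpiLC and 115, 149 and 157 CPM in pEpiLC (log2 fold change 1.14 ± 0.13, adjusted p = 0.00063). Fst, whose product follistatin binds and blocks Activin, rose from 14.6, 13.1 and 13.2 to 427, 186 and 174 CPM (log2 fold change 4.26 ± 0.38, adjusted p = 0.00025), with replicate 1 above the others. Pmepa1, a target that restrains SMAD signalling, rose from 14.8, 14.9 and 15.5 to 58.8, 48.6 and 45.2 CPM (log2 fold change 1.75 ± 0.12, adjusted p = 8.7e-05). The Nodal inhibitors were not called. Lefty1 stood at 183, 311 and 242 CPM in EpiLC and 277, 128 and 148 CPM in pEpiLC. Lefty2 stood at 64.1, 89.9 and 83.2 CPM in EpiLC, 109.6 CPM in pEpiLC 1 and 29.2 and 31.7 CPM in pEpiLC 2 and 3, so that replicate 1 lay above EpiLC and the others below it (log2 fold change -0.48, adjusted p = 0.45, and -1.38, adjusted p = 1.9e-07, without replicate 1). Gdf3, a ligand of the same receptors, fell from 61.6, 62.9 and 55.7 to 1.82, 14.2 and 17.7 CPM (log2 fold change -2.42 ± 0.59, adjusted p = 0.014, 0.0509 without EpiLC 2). For context, aEpiLC, which had no added Activin, held 26.8, 15.9 and 15.9 CPM of Nodal and 7.93, 3.80 and 2.30 CPM of Lefty2.

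Of 26 BMP pathway genes listed, 18 were tested, with 7 called higher and 2 lower (4 and 2 without replicate 1, and 4 higher without EpiLC 3). The ligand gene Bmp5, with no counts in EpiLC, passed the filter on low counts through pEpiLC alone, so the 7 are read against the 26. Bmp7, a ligand of the node and notochord, stood at 1.57, 1.26 and 1.00 CPM in EpiLC and 60.3, 19.0 and 17.4 CPM in pEpiLC (log2 fold change 4.65 ± 0.58, adjusted p = 0.00091, 3.83 without replicate 1). Smad9, an effector of BMP receptors, fell from 0.647, 1.49 and 1.04 to 0.192, 0.0876 and 0.186 CPM (log2 fold change -2.74 ± 0.50, adjusted p = 0.0041). Bmp4, the ligand that induces germ cell precursors and mesoderm, was not called, at 1.99, 2.00 and 2.44 CPM in EpiLC and 1.58, 1.31 and 1.86 CPM in pEpiLC. Id3, a target of BMP signalling, rose from 4.95, 5.72 and 5.27 to 28.4, 13.8 and 13.97 CPM (log2 fold change 1.82 ± 0.30, adjusted p = 0.0028). Msx1, another target, stood at 1.20, 1.16 and 1.22 CPM in EpiLC and 22.2, 2.10 and 2.24 CPM in pEpiLC (log2 fold change 2.88 ± 0.95, adjusted p = 0.041, up to 0.122 without EpiLC 1, 2 or 3, log2 fold change 0.85 without replicate 1 and not called).

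Of 19 retinoic acid pathway genes listed, 13 were tested, with 5 called higher and 2 lower (4 and 2 without replicate 1, and 2 or 3 higher without any 1 of the EpiLC libraries). Cyp26a1 passed the filter on low counts through pEpiLC alone, so the 5 are read against the 19. Cyp26a1, whose product degrades retinoic acid in the streak, had no counts in EpiLC, 85.6 CPM in pEpiLC 1 and 2.98 and 2.10 CPM in pEpiLC 2 and 3, at least 216-fold higher (at least 18.2-fold without replicate 1, adjusted p = 0.033, up to 0.0809 without EpiLC 1, 2 or 3). Dhrs3, a retinaldehyde reductase, was at the level of EpiLC in replicate 1 and above it in the others, at 1.05 CPM in pEpiLC 1, 6.92 and 6.75 CPM in the others and 1.06, 1.54 and 1.44 CPM in EpiLC (log2 fold change 1.86 ± 0.62, adjusted p = 0.042, up to 0.134 without EpiLC 1, 2 or 3 or pEpiLC 2 or 3). The receptor Rarg fell from 153, 143 and 156 to 35.3, 62.9 and 63.5 CPM (log2 fold change -1.49 ± 0.20, adjusted p = 0.0012). In the Notch list, 3 of 16 tested genes were called higher and 1 lower (2 and 3 without replicate 1). Hes1, a repressor switched on by Notch, rose from 9.20, 12.2 and 10.6 to 70.2, 27.1 and 25.8 CPM (log2 fold change 1.94 ± 0.39, adjusted p = 0.0065, 1.31 without replicate 1). Dll1, a Notch ligand of presomitic mesoderm, stood at 16.7, 18.2 and 13.8 CPM in EpiLC, 22.6 CPM in pEpiLC 1 and 2.10 and 2.47 CPM in the others, and was called lower only without replicate 1 (-2.83 against -0.85 with it).

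FGF ligands and receptors moved in both directions, with 3 of 15 tested called higher and 5 lower (4 and 6 without replicate 1). Fgf8, the FGF of the streak that cells need in order to leave it, stood at 3.05, 2.65 and 2.39 CPM in EpiLC and 124.1, 109.6 and 111 CPM in pEpiLC (log2 fold change 5.41 ± 0.11, adjusted p = 1.2e-06), and at 0.75, 0.317 and 0.138 CPM in aEpiLC. Fgf5, which marks the epiblast, was near the fold limit, at 89.7, 76.4 and 87.4 CPM in EpiLC and 167, 179.8 and 161 CPM in pEpiLC (log2 fold change 1.00 ± 0.08, adjusted p = 0.00015), and was not called with DESeq2's size factors (0.99), nor without EpiLC 2 (0.93) or pEpiLC 2 (0.95). Fgf4, a target of OCT4 and SOX2 in pluripotent cells, fell from 105, 106 and 87.7 to 1.63, 4.86 and 6.01 CPM (log2 fold change -4.58 ± 0.36, adjusted p = 0.00016). Among 23 tested genes that respond to ERK, the kinase downstream of FGF, 19 were not called. Of the rest, 3 were higher (13.0%) and 1 lower (4.35%), beside 7.71% and 8.13% of all tested genes. Dusp6, Spry4 and Etv4, common readouts of ERK activity, had log2 fold changes of 0.58, -0.10 and 0.10 and none was called. Dusp6 was highest in replicate 1, at 149, 121 and 116 CPM in EpiLC and 289, 140 and 150 CPM in pEpiLC 1, 2 and 3. Il17rd, a membrane inhibitor of FGF signalling, rose from 54.2, 49.3 and 60.5 to 317, 271 and 246 CPM (log2 fold change 2.34 ± 0.12, adjusted p = 2.7e-05).

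More of the pluripotency genes fell than rose. Among naive pluripotency genes, 8 of 22 tested were called lower and 2 higher (8 lower and 3 higher without replicate 1), and among formative and primed genes 10 of 25 lower and 3 higher (7 and 3 without replicate 1). The exceptions in the naive list were Nanog, a homeobox factor of pluripotency that the posterior epiblast also expresses, and Tdh, a threonine dehydrogenase of stem cell metabolism. Nanog stood at 17.5, 16.9 and 17.0 CPM in EpiLC, 105 CPM in pEpiLC 1 and 249.5 and 258 CPM in pEpiLC 2 and 3 (log2 fold change 3.57 ± 0.33, adjusted p = 0.00028). Tdh stood at 17.2, 16.1 and 16.5 CPM in EpiLC, 27.8 CPM in pEpiLC 1 and 85.1 and 84.7 CPM in the others (log2 fold change 1.98 ± 0.38, adjusted p = 0.0051). For both, pEpiLC 1 was the lowest of the pEpiLC libraries and still above every EpiLC library. Pou5f1, which encodes OCT4, was not called, at 1118, 1104 and 1127 CPM in EpiLC and 792, 1076 and 1018 CPM in pEpiLC. The genes Dppa5a, Nr0b1 and Spp1, all high in naive cells, fell. Dppa5a went from 363, 399 and 383 to 51.3, 79.2 and 80.9 CPM (log2 fold change -2.44 ± 0.16, adjusted p = 8.8e-05), and stood at 44.5, 46.4 and 52.8 CPM in aEpiLC. Nr0b1 went from 5.97, 5.07 and 6.74 to 0.431, 0.351 and 0.978 CPM (log2 fold change -3.33 ± 0.36, adjusted p = 0.00055), and Spp1 from 25.6, 35.4 and 36.4 to 0.527, 4.12 and 3.26 CPM (log2 fold change -3.62 ± 0.52, adjusted p = 0.0016). The naive factors Klf4 and Esrrb were low in both groups and not called. Klf4 stood at 0.925, 1.16 and 1.04 CPM in EpiLC and 1.20, 0.526 and 0.745 CPM in pEpiLC, and Esrrb at 3.61, 4.75 and 3.74 CPM and 5.70, 5.04 and 5.77 CPM.

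Sox2, an HMG-box factor of pluripotency and neural cells, fell from 54.7, 64.8 and 60.4 CPM in EpiLC to 11.6 CPM in pEpiLC 1 and 34.7 and 24.7 CPM in pEpiLC 2 and 3 (log2 fold change -1.34 ± 0.33, adjusted p = 0.013, 0.0528 without EpiLC 2), and aEpiLC held 98.4, 101 and 105 CPM. Sox3, its close relative, fell from 48.8, 49.2 and 37.0 to 6.08, 16.7 and 16.6 CPM (log2 fold change -1.78 ± 0.34, adjusted p = 0.005). In all, 5 of 11 Sox genes tested were called lower and 0 higher. Foxd3, a forkhead factor of the epiblast, was nearly absent from pEpiLC 1, at 0.0479 CPM, which is 1 count, with 7.06 and 6.15 CPM in the others and 43.3, 36.8 and 32.6 CPM in EpiLC (log2 fold change -3.08 ± 0.78, adjusted p = 0.015, up to 0.0602 without EpiLC 1 or 2, and 0.054 with DESeq2). Pou3f1 (OCT6) fell from 226, 190.0 and 191 to 10.5, 42.8 and 44.3 CPM (log2 fold change -2.64 ± 0.45, adjusted p = 0.0031). Utf1, a chromatin factor of pluripotent cells, fell from 428, 479 and 485 to 27.2, 104 and 99.4 CPM (log2 fold change -2.60 ± 0.43, adjusted p = 0.0029). The de novo DNA methylation genes fell as well. Dnmt3l, the cofactor without catalytic activity, went from 69.4, 68.2 and 79.2 to 4.41, 6.13 and 9.45 CPM (log2 fold change -3.44 ± 0.24, adjusted p = 0.00011). Dnmt3a fell from 497, 541 and 592 to 119.9, 225 and 209.8 CPM (log2 fold change -1.56 ± 0.21, adjusted p = 0.0013). Dnmt3b went from 2798, 2492 and 2719.5 to 747, 1608 and 1412 CPM (log2 fold change -1.09 ± 0.24, adjusted p = 0.0093), and was called only with replicate 1 (-0.83 without it). In aEpiLC, Dnmt3l stood at 6.24, 8.37 and 10.6 CPM and Dnmt3b at 2588, 2613 and 2356 CPM.

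Neural and anterior genes had 5 of 14 tested members called lower and 1 higher. Tubb3, a neuronal tubulin, fell from 57.2, 60.5 and 52.3 to 6.13, 15.6 and 15.5 CPM (log2 fold change -2.20 ± 0.31, adjusted p = 0.0014), against 92.4, 115 and 119.5 CPM in aEpiLC. Sox1 and Pax6, factors of the neural plate, were low in EpiLC, with Sox1 at 1.06, 1.35 and 1.17 CPM and Pax6 at 0.509, 0.512 and 0.653 CPM. In pEpiLC, Sox1 stood at 0, 0.131 and 0.326 CPM and Pax6 at 0.0958, 0.131 and 0.0466 CPM, both lower (log2 fold change -2.92 for Sox1, and Pax6 at least 3.88-fold lower, set against 3 counts). Dcx, a microtubule protein of young neurons, was the one called higher, at 0.832, 0.652 and 0.827 CPM in EpiLC and 8.72, 12.1 and 9.22 CPM in pEpiLC (log2 fold change 3.68 ± 0.22, adjusted p = 5.3e-05). Outside the list, Nefl, a neurofilament gene, rose from 45.4, 34.8 and 40.3 to 116, 342 and 348 CPM, less in replicate 1 (log2 fold change 2.73 ± 0.39, adjusted p = 0.0015).

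**Figure D3:**
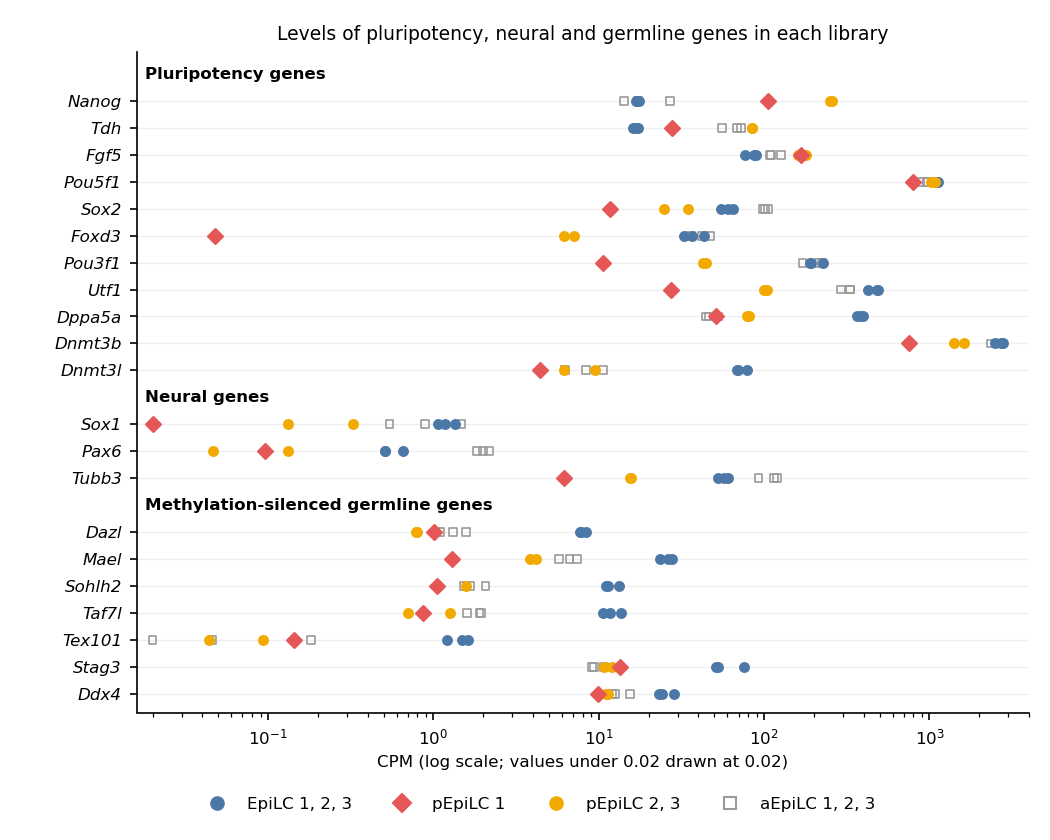
CPM of pluripotency, neural and germline genes on a log axis, 1 point for each library, with the symbols of the streak plot. Nanog, Tdh and Fgf5 lay above EpiLC in pEpiLC, Pou5f1 lay just below EpiLC and was not called, and Foxd3, Pou3f1 and Utf1 were lower in pEpiLC 1 than in pEpiLC 2 and 3. The germline genes lay below EpiLC in all 3 pEpiLC libraries, and in aEpiLC.

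Germline genes that promoter methylation is known to silence at this stage were mostly lower. All 20 listed were tested, 16 were called lower and 0 higher with and without replicate 1, against 8.13% lower over all genes, and the median log2 fold change was -2.56 (-2.47 without replicate 1). Dazl, an RNA-binding protein of germ cells, went from 8.32, 7.82 and 7.66 to 1.01, 0.789 and 0.792 CPM (log2 fold change -3.20 ± 0.19, adjusted p = 5.3e-05). Mael, of the piRNA pathway, went from 27.9, 26.2 and 23.3 to 1.29, 3.81 and 4.19 CPM (log2 fold change -3.06 ± 0.35, adjusted p = 0.00069). Taf7l and Sohlh2, a germ cell TFIID subunit and a transcription factor of oocytes and spermatogonia, fell by 3.67 and 3.26 on the log2 scale. The meiotic cohesin gene Stag3 went from 51.3, 76.0 and 52.3 to 13.5, 10.7 and 11.97 CPM (log2 fold change -2.31 ± 0.18, adjusted p = 0.00015). Every pEpiLC library lay below every EpiLC library for these, and aEpiLC held 1.31, 1.58 and 1.10 CPM of Dazl, 5.72, 6.65 and 7.36 CPM of Mael and 10.8, 9.13 and 9.34 CPM of Stag3. Tuba3a, Tuba3b and Rpl10l, also called lower, have near-identical relatives with which they may share reads, so their values are uncertain. Rhox5, an X-linked homeobox gene outside this list, fell from 31.2, 23.3 and 27.6 to 1.44, 1.97 and 2.701 CPM (log2 fold change -3.75 ± 0.23, adjusted p = 5.9e-05). Of genes that specify primordial germ cells, 3 of 11 tested were called higher and 1 lower (2 and 2 without replicate 1, and 1 higher without EpiLC 1 or 3). Kit, the receptor of migrating germ cells, rose from 9.02, 10.6 and 9.79 to 47.5, 39.6 and 40.4 CPM (log2 fold change 2.11 ± 0.11, adjusted p = 3.9e-05). Tfap2c, a transcription factor of the lineage, rose from 0.647, 1.40 and 0.696 to 5.99, 1.88 and 2.14 CPM (log2 fold change 1.86 ± 0.54, adjusted p = 0.026, up to 0.0975 without EpiLC 1 or 3, log2 fold change 1.13 without replicate 1). Prdm1, an early repressor of the lineage, was not called, at 1.16, 2.37 and 1.83 CPM in EpiLC and 4.17, 0.833 and 0.931 CPM in pEpiLC (log2 fold change 0.14, and -1.02 without replicate 1).

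In the epithelial-mesenchymal transition, called mesenchymal genes rose and most called epithelial genes fell. Of 20 mesenchymal genes tested, 7 were called higher and 0 lower (5 and 0 without replicate 1, and 4 higher without EpiLC 2 or 3). Snai1, the zinc finger repressor of E-cadherin, stood at 0.647, 1.26 and 1.44 CPM in EpiLC, 64.8 CPM in pEpiLC 1 and 15.03 and 13.8 CPM in the others (log2 fold change 4.80 ± 0.74, adjusted p = 0.0022, 3.68 without replicate 1). Zeb2, another such repressor, stood at 0.879, 0.465 and 1.00 CPM in EpiLC and 22.8, 13.1 and 11.5 CPM in pEpiLC (log2 fold change 4.32 ± 0.38, adjusted p = 0.00023). Cdh2 (N-cadherin) stood at 11.7, 10.6 and 15.4 CPM in EpiLC, 276 CPM in pEpiLC 1 and 21.6 and 20.1 CPM in the others (log2 fold change 3.08 ± 1.02, adjusted p = 0.042, up to 0.132 without EpiLC 1, 2 or 3, log2 fold change 0.73 without replicate 1 and not called). Pdgfra, a receptor of early mesoderm, stood at 51.8 CPM in pEpiLC 1 and 2.15 and 2.14 CPM in the others, over 0.324, 0.465 and 0.348 CPM in EpiLC (log2 fold change 5.61 ± 1.51, adjusted p = 0.02, up to 0.0761 without EpiLC 1, 2 or 3, log2 fold change 2.48 without replicate 1). Of 22 epithelial genes tested, 17 were not called, 4 were called lower (18.2%, beside 8.13% of all tested genes) and 1 higher. There were 3 lower and 0 higher without replicate 1, and 2 lower without any 1 of the EpiLC libraries. Cdh1 (E-cadherin) was not called, at 847, 885 and 894 CPM in EpiLC and 537, 803 and 775 CPM in pEpiLC, and neither was Epcam, at 274, 264 and 235 CPM in EpiLC and 146, 232 and 241 CPM in pEpiLC. In both, replicate 1 was the lowest library. Cldn4, a tight junction claudin, fell from 60.1, 62.5 and 62.1 to 22.3, 24.3 and 28.0 CPM (log2 fold change -1.31 ± 0.09, adjusted p = 0.00012).

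Cadherins and protocadherins were tested for 48 of 88 members, and 22 were called higher and 3 lower. Cdh13, at or under 3 counts in each EpiLC library, passed the filter through pEpiLC alone, so the 22 are read against the 88. Pcdh7 stood at 0.231, 0 and 0.131 CPM in EpiLC, 122 CPM in pEpiLC 1 and 10.5 and 9.87 CPM in the others (log2 fold change 8.54 ± 1.60, adjusted p = 0.0047, 6.32 without replicate 1). Cdh11, a mesenchymal cadherin, stood at 0.231, 0.419 and 0.74 CPM in EpiLC, 83.3 CPM in pEpiLC 1 and 12.4 and 10.2 CPM in the others (log2 fold change 6.22 ± 1.08, adjusted p = 0.0035, 4.58 without replicate 1). Pcdhgc3, of the clustered γ family, rose from 7.54, 5.82 and 5.57 to 120.2, 51.5 and 59.4 CPM (log2 fold change 3.61 ± 0.35, adjusted p = 0.00036). Genes of the clustered families share constant exons, so how reads were split between them is uncertain. Pcdh1 fell from 119, 101 and 125.4 to 26.9, 52.9 and 49.0 CPM (log2 fold change -1.43 ± 0.23, adjusted p = 0.0025).

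Of 31 collagens tested, 14 were called higher and 3 lower (11 and 2 without replicate 1), with a median log2 fold change of 0.97. The basement membrane pair Col4a1 and Col4a2 both rose. Col4a1 went from 24.5, 22.5 and 19.4 to 106, 49.2 and 47.9 CPM (log2 fold change 1.61 ± 0.31, adjusted p = 0.0052). Col4a2 went from 6.75, 7.03 and 5.27 to 48.7, 19.7 and 22.6 CPM (log2 fold change 2.25 ± 0.35, adjusted p = 0.0023). Col18a1, also of basement membrane, fell from 539, 556 and 579 to 145, 335 and 339 CPM (log2 fold change -1.04 ± 0.28, adjusted p = 0.02, up to 0.0658 without EpiLC 1, 2 or 3, log2 fold change -0.73 without replicate 1 and not called). Among 28 laminins and integrins, 5 were called higher and 3 lower. The integrins Itga3 and Itga6, receptors for laminin, fell, with log2 fold changes of -1.84 and -1.28 (-1.49 and -1.10 without replicate 1), and Itga1, a receptor for collagen, rose from 1.90, 1.26 and 2.18 to 36.4, 19.1 and 15.3 CPM (log2 fold change 3.72 ± 0.39, adjusted p = 0.00046). Fn1 (fibronectin), a matrix protein of migrating mesoderm, lay on opposite sides of EpiLC, at 226, 233 and 237 CPM in EpiLC, 1756 CPM in pEpiLC 1 and 146 and 144 CPM in pEpiLC 2 and 3, and was not called (log2 fold change 1.56, adjusted p = 0.2, and -0.68 without replicate 1).

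Eph receptors and ephrins, which sort cells by contact, had 9 of 20 tested members called higher and 2 lower (8 and 1 without replicate 1). Epha1 stood at 44.5, 41.1 and 40.3 CPM in EpiLC and 380.3, 289 and 271 CPM in pEpiLC (log2 fold change 2.90 ± 0.14, adjusted p = 2.3e-05). Epha2 stood at 70.9, 59.4 and 66.8 CPM in EpiLC and 331, 216 and 183 CPM in pEpiLC (log2 fold change 1.89 ± 0.21, adjusted p = 0.00062). Of 39 genes of the semaphorin, plexin, netrin and slit systems, 8 were called higher and 2 lower. Ntn1, a secreted guidance cue, stood at 0.832, 0.372 and 0.696 CPM in EpiLC, 185 CPM in pEpiLC 1 and 22.1 and 20.4 CPM in the others (log2 fold change 6.89 ± 1.17, adjusted p = 0.0032, 5.05 without replicate 1). Slit3 rose from 19.3, 23.41 and 21.5 to 114, 83.4 and 83.7 CPM (log2 fold change 2.13 ± 0.15, adjusted p = 0.00011). Of 19 actomyosin and SRF target genes, 3 were called higher and 0 lower. Tagln, an actin-binding protein, rose from 12.8, 10.8 and 10.7 to 16.3, 45.8 and 55.0 CPM, least in replicate 1 (log2 fold change 1.77 ± 0.39, adjusted p = 0.0093), and stood at 74.3, 118 and 132 CPM in aEpiLC.

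**Figure D4:**
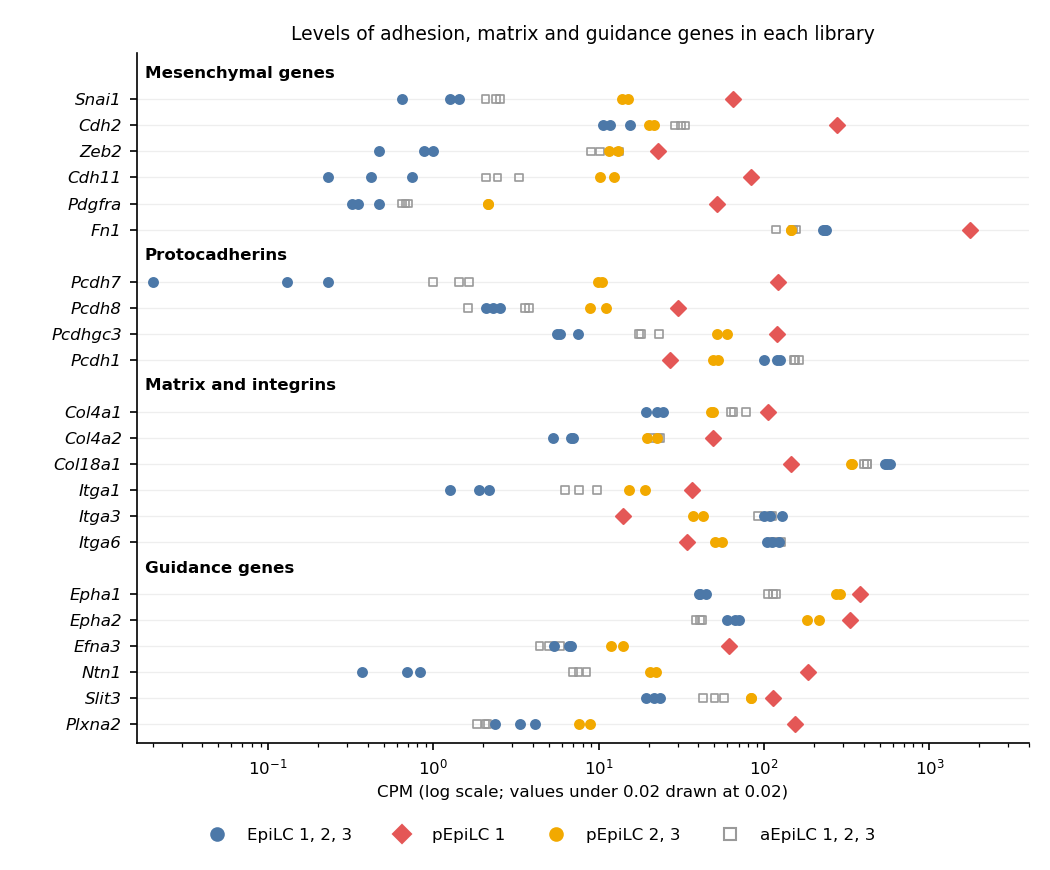
CPM of adhesion, matrix and guidance genes on a log axis, 1 point for each library, with the symbols of the streak plot. Epha1, Epha2, Slit3 and Itga1 lay above EpiLC in all 3 pEpiLC libraries, while Cdh2, Pdgfra, Plxna2 and Fn1 were far higher in pEpiLC 1 than in pEpiLC 2 and 3, with Fn1 of pEpiLC 2 and 3 below EpiLC.

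Of 22 genes of the integrated stress response and serine synthesis, 9 were called lower and 0 higher (6 and 0 without replicate 1), with a median log2 fold change of -0.95. Nupr1, a stress-induced chromatin protein, fell from 29.6, 36.0 and 32.6 to 1.25, 1.88 and 1.72 CPM (log2 fold change -4.33 ± 0.17, adjusted p = 1.2e-05). Trib3, a pseudokinase target of ATF4, fell from 91.3, 98.6 and 92.3 to 9.05, 34.4 and 26.6 CPM (log2 fold change -2.01 ± 0.39, adjusted p = 0.0054). Ddit3 (CHOP) fell from 18.9, 24.6 and 18.7 to 4.69, 6.18 and 5.73 CPM (log2 fold change -1.91 ± 0.17, adjusted p = 0.00023). Atf4 itself was not called (-0.57). In aEpiLC, Nupr1 stood at 2.49, 5.06 and 5.38 CPM and Ddit3 at 4.83, 7.87 and 8.42 CPM. Of 17 hypoxia-response genes, 4 were called lower and 1 higher. Bnip3, a mitophagy receptor, fell from 65.2, 74.3 and 90.1 to 12.4, 35.2 and 19.2 CPM (log2 fold change -1.79 ± 0.34, adjusted p = 0.0048). Vegfa, the vascular growth factor, fell by 1.37 on the log2 scale, but Ndrg1 rose from 3.93, 5.26 and 8.31 to 37.7, 41.1 and 23.8 CPM (log2 fold change 2.54 ± 0.31, adjusted p = 0.00082). Of 20 glycolysis genes, 3 were called lower and 0 higher. Aldoa, an aldolase, fell from 1418, 1583 and 1716 to 659.9, 852 and 703 CPM (log2 fold change -1.10 ± 0.11, adjusted p = 0.0004), and stood at 550, 794 and 666 CPM in aEpiLC.

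Of 31 cell cycle and DNA replication genes, 1 was called, Ccnd2 (cyclin D2), which rose from 3.65, 4.19 and 4.31 to 35.1, 25.3 and 29.7 CPM (log2 fold change 2.88 ± 0.16, adjusted p = 4e-05), and the median was -0.09. Of 19 p53 targets, 3 were called higher and 1 lower (3 and 0 without replicate 1). Cdkn1a (p21), an inhibitor of cyclin-dependent kinases, rose from 39.8, 37.2 and 30.8 to 137, 102 and 122 CPM (log2 fold change 1.74 ± 0.13, adjusted p = 0.00015). Bbc3 (PUMA), which promotes apoptosis, fell by 1.12 on the log2 scale and was just under the fold limit without replicate 1 (log2 fold change -0.97). Fas, a death receptor, rose from 0.277, 0.0465 and 0.174 to 1.53, 1.23 and 1.16 CPM (log2 fold change 2.93 ± 0.48, adjusted p = 0.0027). Perp, a membrane protein of apoptosis and desmosomes, rose from 5.596, 6.004 and 5.53 to 37.1, 25.2 and 33.5 CPM (log2 fold change 2.48 ± 0.16, adjusted p = 8.6e-05). Of 24 cholesterol synthesis genes, only Ebp was called, with 7.21, 6.10 and 5.83 CPM in EpiLC and 33.1, 33.2 and 29.0 CPM in pEpiLC (log2 fold change 2.31 ± 0.12, adjusted p = 3.6e-05). Of 87 cytosolic ribosomal protein genes, 85 were not called and 2 were lower, the paralogs Rpl10l and Rpl39l, the second from 12.8, 15.2 and 14.97 to 0.383, 0.613 and 0.931 CPM (log2 fold change -4.47 ± 0.27, adjusted p = 5.8e-05).

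Calls in large gene families are given beside the 7.71% higher and 8.13% lower of all tested genes. Of 234 solute carriers, 29 were called higher (12.4%) and 25 lower (10.7%). Slc25a31, a germ cell ATP carrier, fell by 3.08 on the log2 scale, and Slc22a23 rose from 5.69, 4.10 and 5.40 to 35.9, 31.7 and 28.2 CPM (log2 fold change 2.65 ± 0.16, adjusted p = 5.8e-05). Of 84 potassium, sodium and calcium channel genes, 19 were called higher (22.6%) and 11 lower (13.1%), or 17 and 17 without replicate 1. Of 24 Fox genes, 3 were called in each direction (12.5%), with Foxn4 falling from 22.8, 22.8 and 21.7 to 2.63, 4.03 and 3.31 CPM (log2 fold change -2.75 ± 0.16, adjusted p = 5.3e-05). Of 15 Hox genes in the table, 2 were tested and 0 were called. Of 378 C2H2 zinc finger genes named Zfp, 25 were called higher (6.61%) and 23 lower (6.08%), near the shares of all genes. Zfp703, a repressor, was highest in replicate 1, at 0.647, 0.279 and 0.348 CPM in EpiLC and 50.7, 3.24 and 3.21 CPM in pEpiLC (log2 fold change 5.47 ± 1.34, adjusted p = 0.014, up to 0.0626 without EpiLC 1, 2 or 3, log2 fold change 2.91 without replicate 1). Genes of 1 stretch of chromosome 4, chr4:145510759-147848366 on GRCm38 from the GENCODE vM21 annotation, held 12 of the 23 lower calls among 18 tested Zfp genes there, with and without replicate 1. This stretch was chosen after the values were seen. Zfp600 fell there from 65.4, 65.7 and 73.5 to 8.28, 8.19 and 10.4 CPM (log2 fold change -2.93 ± 0.12, adjusted p = 1.2e-05). Zfp981 fell from 28.7, 30.8 and 35.2 to 2.44, 3.90 and 5.73 CPM (log2 fold change -2.97 ± 0.27, adjusted p = 0.00027). In aEpiLC, Zfp600 stood at 7.50, 10.99 and 12.4 CPM and Zfp981 at 2.81, 4.61 and 4.05 CPM. These are close paralogs with repeated zinc fingers, so how reads were split between them is uncertain.

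Among the genes with the largest fold changes in either direction were several that are not ordered by role above. Tgfbr3 (betaglycan), a co-receptor for TGF-β ligands and inhibins, stood at 2.27, 2.37 and 2.96 CPM in EpiLC and 167, 137 and 141 CPM in pEpiLC (log2 fold change 5.86 ± 0.14, adjusted p = 1.2e-06). Nt5e (CD73), an ectonucleotidase, stood at 0.647, 0.698 and 0.609 CPM in EpiLC and 36.8, 37.9 and 32.1 CPM in pEpiLC (log2 fold change 5.76 ± 0.14, adjusted p = 1.4e-06). Both were even among the pEpiLC libraries. Frzb, a secreted Wnt antagonist, was not, at 56.5 CPM in pEpiLC 1, 3.51 and 2.65 CPM in the others and 0.0925, 0.14 and 0.174 CPM in EpiLC (log2 fold change 7.20 ± 1.64, adjusted p = 0.01, 4.44 without replicate 1). Aplnr, the apelin receptor of early mesoderm, had no counts in EpiLC, 84.9 CPM in pEpiLC 1 and 1.80 and 1.54 CPM in pEpiLC 2 and 3, at least 211-fold higher (at least 11.9-fold without replicate 1, adjusted p = 0.041, up to 0.0965 without EpiLC 1, 2 or 3). On the lower side, Gadd45g, a stress and differentiation gene, fell from 21.0, 16.2 and 22.5 to 0.91, 1.14 and 1.21 CPM (log2 fold change -4.19 ± 0.20, adjusted p = 2.3e-05) and stood at 29.4, 25.1 and 27.0 CPM in aEpiLC. Wt1, a zinc finger factor of mesothelium and kidney, fell from 17.3, 18.1 and 17.7 to 1.39, 0.92 and 1.21 CPM (log2 fold change -3.91 ± 0.18, adjusted p = 2.2e-05). Slc35d3, a sugar nucleotide transporter family member, fell from 27.5, 24.9 and 25.5 to 1.05, 2.19 and 1.91 CPM (log2 fold change -3.91 ± 0.23, adjusted p = 5.3e-05) and held 38.4, 50.6 and 49.3 CPM in aEpiLC. Rasgrp2, an activator of RAP1, fell from 76.7, 73.8 and 87.1 to 2.78, 11.3 and 9.69 CPM (log2 fold change -3.32 ± 0.41, adjusted p = 0.00085).

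Genes with the largest differences in CPM rather than in fold were abundant in one or both groups. Peg3, an imprinted zinc finger gene, rose from 95.7, 104 and 102 to 702, 236 and 231 CPM (log2 fold change 1.95 ± 0.42, adjusted p = 0.0084, 1.21 without replicate 1). Rbbp7, a histone-binding subunit of chromatin complexes, rose from 268, 274 and 265 to 542, 648 and 631 CPM (log2 fold change 1.17 ± 0.07, adjusted p = 6.2e-05). Lrp2 (megalin), an endocytic receptor, fell from 282, 229 and 278 to 18.4, 94.0 and 95.8 CPM (log2 fold change -1.93 ± 0.51, adjusted p = 0.018, up to 0.059 without EpiLC 1 or 3) and stood at 481, 563 and 444 CPM in aEpiLC. Sall1, a zinc finger factor of pluripotent cells, fell less in replicate 1 than in the others, from 286, 292 and 322 to 138, 55.8 and 56.7 CPM (log2 fold change -1.85 ± 0.34, adjusted p = 0.0042). Phc1, a Polycomb subunit, fell from 606, 619 and 622 to 196, 357 and 354 CPM (log2 fold change -1.03 ± 0.20, adjusted p = 0.0055, -0.80 without replicate 1 and not called).

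Within pEpiLC, 84 genes were more than 4-fold higher in replicate 1 than in the mean of replicates 2 and 3 and 21 were more than 4-fold lower (on CPM + 1), which is described without a test. Of the 84, 39 were called higher than EpiLC without replicate 1, whose level chose them, and 47 with it, and 25 were called in neither fit. At a 2-fold limit, 368 genes were higher and 283 lower in replicate 1, and of those 283, 101 were called lower than EpiLC and 17 higher. Those calls come from the fit that includes replicate 1, whose low level chose the genes, so they are not separate from that choice. Over all tested genes, 7.71% were called higher and 8.13% lower. The genes highest in replicate 1 over the others, among those with a pEpiLC mean of at least 5 CPM, were Aplnr, Lhx1, Cyp26a1, Pdgfra, Evx1os, Mixl1, Frzb, Cdh2, Plxna2 and Arl4d. In the fit that includes replicate 1, whose level chose them, 9 were called higher and Arl4d was not called. Cdh2 was not called without replicate 1. Plxna2, a semaphorin receptor, stood at 154 CPM in pEpiLC 1 and 8.81 and 7.59 CPM in the others, over 2.36, 4.14 and 3.35 CPM in EpiLC (log2 fold change 4.11 ± 1.23, adjusted p = 0.029, up to 0.102 without EpiLC 1, 2 or 3, log2 fold change 1.32 without replicate 1). The genes lowest in replicate 1 included Trh, the precursor of a releasing hormone, at 13.1 CPM in pEpiLC 1, 157 and 114 CPM in the others and 10.5, 8.61 and 7.70 CPM in EpiLC. Pcsk2, a prohormone convertase, stood at 1.96 CPM in pEpiLC 1, 16.8 and 14.7 CPM in the others and 1.39, 1.303 and 1.87 CPM in EpiLC (log2 fold change 2.86 ± 0.70, adjusted p = 0.014, up to 0.0612 without EpiLC 1 or 2). Thbs1, a matrix glycoprotein, stood at 2.59 CPM in pEpiLC 1, 17.4 and 23.1 CPM in the others and 14.01, 10.98 and 11.97 CPM in EpiLC. Eras, a Ras family gene of embryonic stem cells, stood at 3.88 CPM in pEpiLC 1, 31.0 and 26.3 CPM in the others and 14.7, 16.7 and 17.6 CPM in EpiLC. By a limit of 1.5-fold on each side, replicate 1 lay above and replicates 2 and 3 below all EpiLC libraries in 8 genes, and the reverse in 2, among the 10636 genes with a pEpiLC mean of at least 5 CPM. Arl4d, a small GTPase, was one of the 8, at 29.4 CPM in pEpiLC 1, 1.31 and 1.63 CPM in the others and 8.32, 7.03 and 7.18 CPM in EpiLC, and was called lower without replicate 1 (log2 fold change -2.35, against 0.52 with it).

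**Figure D5:**
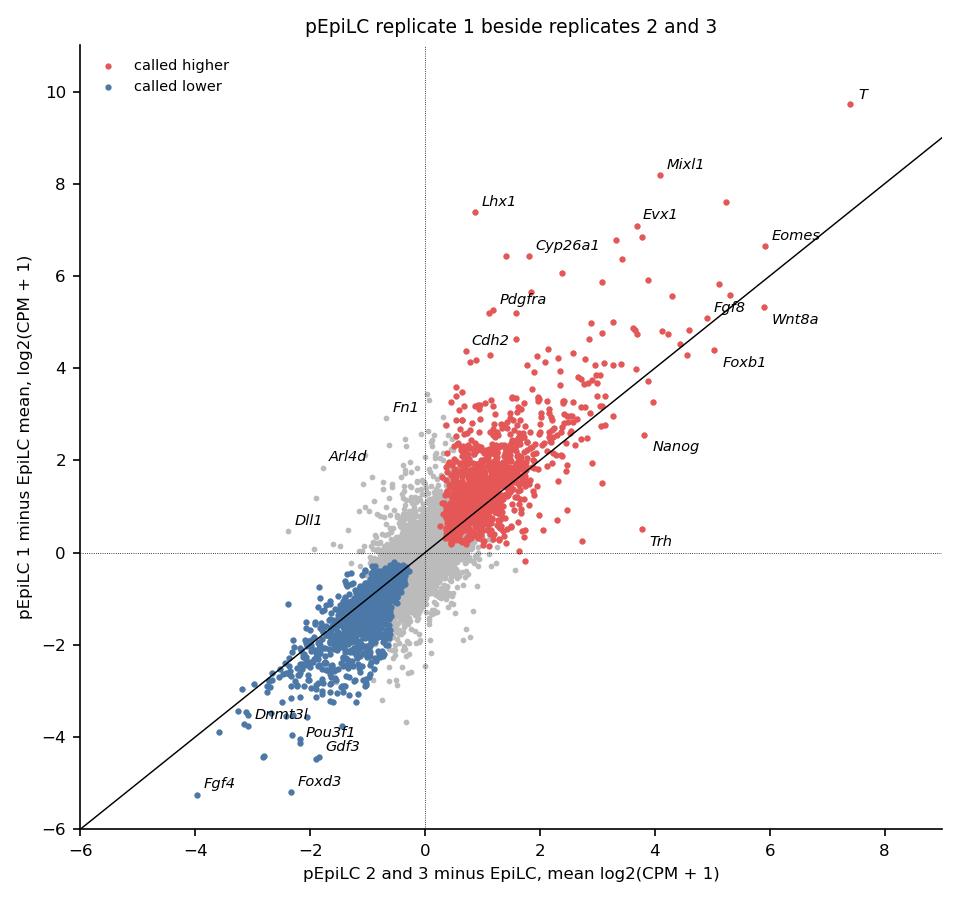
Each tested gene by its level in pEpiLC 1 (vertical) and in pEpiLC 2 and 3 (horizontal), as the difference of mean log2(CPM + 1) from EpiLC, so that both axes share the EpiLC values, with genes called higher in red and lower in blue. Most called genes lie near the line of equal change, while Lhx1, Cyp26a1, Mixl1, Pdgfra and Cdh2 lie above it and Trh, Nanog and Foxd3 below it.

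Markers of other cell types were summed in each library. In bulk RNA, fewer cells of a type and less RNA per cell cannot be told apart. Of the extraembryonic endoderm list, 7 of 10 genes in the table were tested, with 1 called higher and 1 lower. Its summed level was 269 to 276 CPM in EpiLC, 563 CPM in pEpiLC 1 and 306 and 313 CPM in pEpiLC 3 and 2, mostly from Lamb1 and Col4a1, which other cells also express, while Apoa1, Apom and Sox7 were under 0.4 CPM in every library. Apob, another member, was not called, at 2.73, 3.40 and 3.35 CPM in EpiLC and 7.04, 2.67 and 1.82 CPM in pEpiLC, highest in replicate 1. The trophoblast list summed to 9.76 to 10.8 CPM in EpiLC, 14.3 CPM in pEpiLC 1 and 7.62 and 6.99 CPM in the others, with 1 of 5 tested genes called higher and 1 lower. These were Cdx2, described above, and Ascl2, a factor of trophoblast precursors, which fell from 4.39, 3.44 and 4.96 to 0.527, 0.789 and 0.838 CPM (log2 fold change -2.56 ± 0.27, adjusted p = 0.00049). Elf5 was at 0 in EpiLC and at most 0.138 CPM in any library. The fibroblast list summed to 31.9 to 35.8 CPM in EpiLC, 46.6 CPM in pEpiLC 1 and 22.5 and 23.5 CPM in the others, with 1 gene called higher and 3 lower. The blood and endothelium list summed to 25.3 to 29.6 CPM in EpiLC, 13.6 CPM in pEpiLC 1 and 8.46 and 9.59 CPM in the others, with 0 called higher and 3 lower and Cdh5 at most 0.14 CPM in any library. Kdr, a receptor of early blood and vessel precursors and of early mesoderm, was not tested and stood at 0.0925, 0.14 and 0.261 CPM in EpiLC and 4.64, 0.307 and 0.233 CPM in pEpiLC, above the others in replicate 1. The summed levels of all 4 lists were higher in pEpiLC 1 than in pEpiLC 2 and 3. The part of these markers in the results was not tested.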

How the data were processed

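RNA-seq libraries of EpiLC, pEpiLC and aEpiLC, 3 of each, were analysed from the gene-level table the authors deposited, which holds expected counts of 23453 gene symbols for each library. Per the labels and the submitters' processing notes, reads were handled with STAR 2.7.9a and RSEM 1.3.1 on GRCm38 (mm10). The annotation, the strandedness and the read cleaning are not given in the sources used here. The deposited expected counts were rounded to whole numbers. Genes were kept by edgeR's filterByExpr on the 6 libraries compared, scaled by TMM and tested with the quasi-likelihood test of edgeR 4.0.16 (R 4.3.3), with Benjamini-Hochberg adjustment over all tested genes. No covariate was used, and the aEpiLC libraries did not enter the fit. CPM were scaled by TMM over the 9 libraries. For a gene with 3 counts or fewer in every library of a group, a fold is given as a lower bound against 3 counts per library, which covers counting error only and corresponds to 0.131 to 0.144 CPM. The script was tested on simulated data.

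The comparison, its gene lists and its tests were chosen with earlier results of these data known. Genes were named by rule: the 15 called genes per direction with the largest log2 fold change, no overlap between groups and a mean of at least 5 CPM, the same from the fit without pEpiLC replicate 1, the 10 per direction with the largest CPM difference, the first 3 members of each list with up to 6 called members per direction, and the 10 genes highest and lowest in pEpiLC replicate 1 over replicates 2 and 3. Any other named gene was chosen after its values were seen, among them Wnt5b, Nkd1, Notum, Rnf43, Apcdd1 and Stag3. Alternatives were other scalings, DESeq2 1.42.0, a likelihood ratio test, limma voom with library weights (limma 3.58.1), other filters, all 9 libraries in 1 fit, a replicate block and leaving out each library. The supplied promoter windows are from RefSeq. Coordinates of the zinc finger genes are from GENCODE vM21, in which 22803 of the 23453 symbols matched 1 gene.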

Additional observations from a re-analysis of the deposited data

How the results depend on the processing

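The number of genes higher in pEpiLC (1178) and of genes lower in pEpiLC (1243) stayed within 1.5 times of these values under every alternative run, with the following exceptions. With at least 10 counts demanded in every library, which tested 13551 genes and drops genes absent from 1 group, the lower count fell to 801, beside 817 higher, which is within 1.5 times. With no limit on fold change, 3481 genes were higher and 3278 lower. Leaving out 1 library at a time gave 958 to 1247 higher and 998 to 1318 lower. The correlations of same-numbered deviations from the group means were 0.026, 0.039 and 0.0053. With few libraries per group and pEpiLC replicate 1 apart from the others, such values cannot exclude a pairing by replicate number. A replicate block gave 1099 higher and 1200 lower. Of 130 called genes with values in the text, 0 changed sign, and 26 lost the call under at least 1 alternative, 8 of them without pEpiLC replicate 1 and 5 under the block. The other tools, size factors or the fit on all 9 libraries ended 11 calls. DESeq2 ended those of Fgf5 and Foxd3. It gave no adjusted p for 16 other called genes, Aplnr, Cdh2, Cdx1, Cyp26a1, Evx1, Frzb, Gsc, Lhx1, Mixl1, Msx1, Ntn1, Pcdh7, Pdgfra, Plxna2, Wnt5a and Zfp703, which are left out of this count. With library weights (limma voom), 9 calls were lost, all of them but that of Lhx1 (adjusted p = 0.069) also lost without pEpiLC replicate 1.

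Some genes that were not called changed sign. The log2 fold change of Arl4d was -2.08 under voom with library weights and -0.78 under the replicate block, and ran from -2.35 to 1.05 when 1 library was left out. The log2 fold change of Fn1 was -0.45 under those weights and ran from -0.68 to 2.04 without 1 library. The log2 fold change of Prdm1 was -0.83 under the weights and -0.17 under the block, and ran from -1.02 to 0.51. The log2 fold change of Apob was -0.40 under the weights and ran from -0.49 to 0.62. With 1 library left out, the log2 fold change of Eras ran from -0.12 to 0.81 (-0.025 under the block), the log2 fold change of Thbs1 from -0.30 to 0.71 (-0.10 under the block), the log2 fold change of Etv4 from -0.017 to 0.23, the log2 fold change of Lef1 from -0.19 to 0.075 and the log2 fold change of Spry4 from -0.40 to 0.045. For Arl4d, Fn1, Prdm1 and Apob the lowest value was that without pEpiLC replicate 1. Depth was alike in all libraries, and the 3 libraries per group, of which 1 stands apart, limit the precision.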
